A study of Drosophila melanogaster with 11 samples.

Results

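The Rab GTPases are the small GTPases that give membrane compartments their identity and direct traffic between them. Their genes were taken here as those whose symbol in the deposited exon tables is Rab or RabX followed by a number alone. This gave 27 of 16509 listed genes, and all 27 symbols are current in the name table used. They are spread over the arms X (8 genes), 2L (5), 2R (4), 3L (5) and 3R (5). Symbols with a letter after the number, and Rab32, which the tables list as ltd, were left out by this rule. A Rab protein cycles between a GTP-bound form, which recruits effectors to a membrane, and a GDP-bound form, which an escort protein can lift off it. Exchange factors switch a Rab on, GTPase-activating proteins switch it off, and a prenyl anchor holds it in the membrane. In hemocyte-like cells such as S2, an established Drosophila line that engulfs particles, Rab proteins are known for endocytosis, phagosome maturation and secretion.

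Transcript levels came from polyA RNA-seq of 2 dTet knockdown libraries and 2 control libraries of S2 cells. dTet is the fly gene for Tet, an enzyme of the kind that turns methylcytosine into hydroxymethylcytosine. Where RNA holds hydroxymethylcytosine was mapped by hMeRIP-seq, the sequencing of total RNA pulled down with an antibody to that base, in 1 sample of S2 cells edited by CRISPR at dTet and 1 sample edited at yellow, a pigmentation gene. Another 5 of the 11 samples were not analysed here. All groups were S2 cells kept at 24°C in serum-free medium with L-glutamine. How dTet was knocked down is not in the labels, which call the control only the dTet control and leave it unsaid whether an edited line is a clone or a mixed population. Nor do they tell if replicates came from separate cultures. If they did not, the p-values cover no more than technical spread.

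The unit of level is called signal here. It is the number of reads in a 40-bp bin of exon, averaged over bins and multiplied by 1 scale factor per library, so it is a value per length and can be compared between genes. The total behind the factor is not given in the sources used here, which leaves absolute depth unknown. The step in signal for 1 read in 1 bin was 0.372 and 0.476 in knockdown libraries, against 0.340 and 0.390 in controls. Of 9 hemocyte markers found, 8 were on, led by the collagen gene Cg25C at a mean signal of 71.7 in knockdown libraries and 77.6 in controls, while NimC1 stood at 0.320 and 0.206. Markers of muscle and of fat body had 0 of 6 on each, those of neurons 2 of 6 (elav and Syx1A) and those of the germline 1 of 6 (aub). Of the neuron markers, elav averaged 2.27 signal in knockdown libraries and 1.87 in controls, and Syx1A 17.2 and 19.99. The neuron markers nSyb and Syt1 were listed at 0 in all 4 libraries, and brp and fne were not on. dTet itself, listed as CG43444, had 4.88 and 6.60 signal in the knockdown libraries, against 6.93 and 8.01 in the controls. The groups did not overlap, and the log2 difference of -0.34 did not pass (standard error 0.21, limma, unadjusted p = 0.144, adjusted p = 0.9995). Its size depended on single libraries, at -0.15 without knockdown 1 and -0.52 without knockdown 2.

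Of the 27 Rab genes, 19 were on, defined as a mean control signal of 1 or more. That is 70.4%, beside 36.9% of all 16509 listed genes. The Rab genes on had a median control signal of 7.76, against 2.99 over the 6086 genes on. The signal was concentrated in 7 members. Rab11, Rab1, Rab35, Rab7, Rab5, Rab2 and Rab10 each reached 10 or more in controls, and together they held 64.4% of the summed Rab signal per length. All Rab exons together took 0.296% and 0.295% of the exonic signal in the knockdown libraries, against 0.335% and 0.306% in the controls. In bulk libraries fewer cells of a type and less RNA per cell cannot be told apart.

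**Figure D1:**
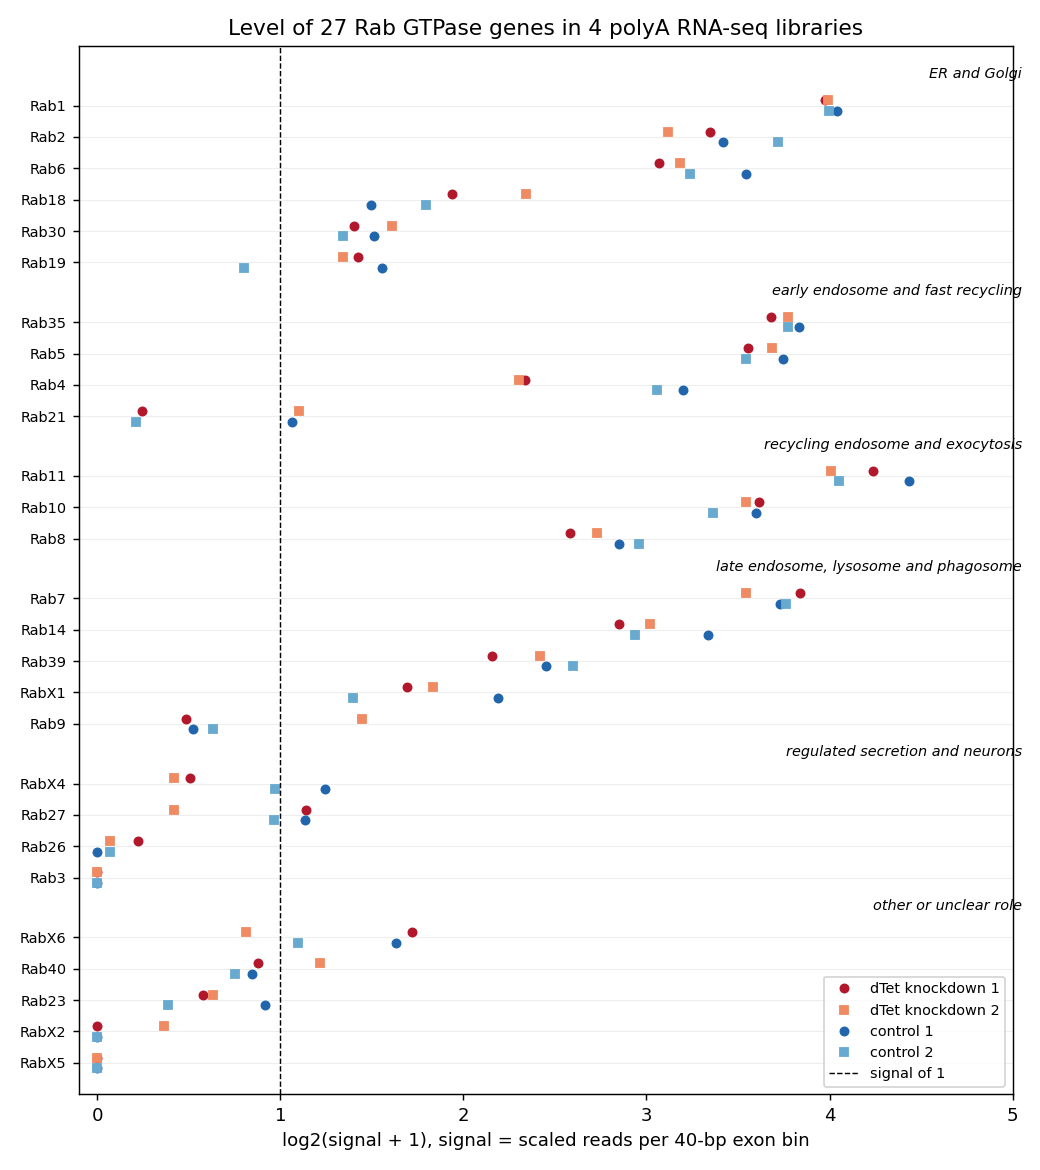
Level of each of the 27 Rab genes as log2(signal + 1), grouped by known role, with a point for each library: dTet knockdown 1 and 2 in red and orange above control 1 and 2 in dark and light blue. The dashed line marks a signal of 1. Every gene of the ER and Golgi group and of the recycling endosome group stood above the line on average in controls, and the neuronal Rab3 lay at 0 in all 4 libraries.

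All 6 Rab genes with roles at the endoplasmic reticulum and the Golgi were on. Rab1, which directs transport from the endoplasmic reticulum to the Golgi, had 14.7 and 14.9 signal in the knockdown libraries, against 15.5 and 15.0 in the controls. Rab2, which acts between the Golgi and the endoplasmic reticulum and in fly lysosome fusion, had 9.19 and 7.69 against 9.68 and 12.2. Rab6, a Golgi Rab for retrograde and secretory carriers, had 7.37 and 8.08 against 10.7 and 8.44. In each of these 3 genes both knockdown libraries lay below both controls, as in 17.4% of all 6050 genes tested, by a margin that was narrow for Rab1. After the libraries were rescaled to equal median signal, this held for Rab6 but not for Rab1 or Rab2. The other members were weaker. Rab18, known from mammalian cells for lipid droplets and contacts of the endoplasmic reticulum, had 2.83 and 4.07 signal in the knockdown libraries, against 1.82 and 2.47 in the controls. Rab30 had 1.64 and 2.05 against 1.85 and 1.54, and Rab19 had 1.69 and 1.54 against 1.94 and 0.742. Both bind golgins, the tethers of the fly Golgi. Rab18 was higher in both knockdown libraries than in both controls, as were 13.2% of all genes tested, while the groups overlapped for Rab30 and Rab19.

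In the early endosomal and fast recycling group 3 of 4 genes were on, and 2 of them were among the highest of the family. Rab35, a recycling Rab that serves phagocytosis in fly hemocytes, had 11.8 and 12.7 signal in the knockdown libraries, against 13.3 and 12.7 in the controls. Rab5, which drives early endosome fusion, had 10.7 and 11.9 against 12.4 and 10.7. Rab4, which returns cargo from early endosomes to the surface, had 4.05 and 3.93 against 8.18 and 7.33. The knockdown values of Rab4 differed by less from each other than from either control, whereas those of Rab5 overlapped the controls and those of Rab35 lay just under them. Rab21, linked to early endosomes and integrin traffic, was not on, at 0.186 and 1.14 signal against 1.09 and 0.156.

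The 3 genes of the recycling endosome and exocytosis were all on. Rab11, the recycling endosome Rab and the highest of the family, had 17.9 and 15.1 signal in the knockdown libraries, against 20.6 and 15.6 in the controls. Rab10 and Rab8 act in secretion to the plasma membrane, in fly epithelia also of basement membrane. Rab10 had 11.2 and 10.7 signal against 11.1 and 9.29, and Rab8 had 5.00 and 5.62 against 6.22 and 6.77. The groups overlapped for Rab11 and Rab10 and did not for Rab8, which was lower in both knockdown libraries, as were 17.4% of all genes tested.

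Late endosomes, lysosomes and phagosomes were represented by 4 of 5 genes on. Rab7, which takes cargo to lysosomes, had 13.3 and 10.7 signal in the knockdown libraries, against 12.3 and 12.6 in the controls. Rab14, which acts in phagosome maturation, had 6.21 and 7.10 against 9.10 and 6.65, and Rab39, a lysosomal Rab, had 3.46 and 4.34 against 4.47 and 5.06. RabX1, linked in flies to endolysosomal traffic, had 2.23 and 2.57 against 3.56 and 1.63. Of these 4 genes only Rab39 had both knockdown libraries below both controls, beside 17.4% of all genes tested. This did not hold for Rab39 after the libraries were rescaled to equal median signal. The controls of RabX1 differed 2.18-fold from each other, more than the groups did. Rab9, known from mammalian cells for return from late endosomes to the Golgi, was not on in controls, at 0.399 and 1.72 signal in the knockdown libraries, against 0.439 and 0.552.

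Rab genes of regulated secretion and neurons were low or listed at 0. Rab3, the synaptic vesicle Rab, was listed at 0 in all 4 libraries, and Rab26, another Rab of secretory and synaptic vesicles, had 0.168 and 0.051 signal in the knockdown libraries, against 0 and 0.048. Rab27, a Rab of secretory granules, had 1.21 and 0.335 signal against 1.19 and 0.950. RabX4, reported mainly from fly neurons, had 0.422 and 0.335 against 1.37 and 0.960. Rab27 and RabX4 thus counted as on in controls by a small margin, and their means over the 4 libraries were under the limit for testing. Of the remaining genes only RabX6, whose role is unclear, was on, with 2.30 and 0.757 signal against 2.10 and 1.14. Rab40, known from mammals as part of a ubiquitin ligase, had 0.841 and 1.33 against 0.798 and 0.687. Rab23, which acts in planar cell polarity in flies, had 0.494 and 0.550 against 0.891 and 0.310. RabX2 was above 0 only in knockdown 2 (0.286) and RabX5 in no library. Of the family members that the rule left out, Rab32 averaged 0.103 in knockdown libraries and 0.0963 in controls, and Rab9D, Rab9Db, Rab9E, Rab9Fa and Rab9Fb were listed at 0.

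The order of the 19 genes on could be read only in coarse steps. Of 18 neighbours in the order of control means, 12 overlapped in their control libraries. The 6 steps that did not overlap were Rab11 over Rab1, Rab1 over Rab35, Rab35 over Rab7, Rab4 over Rab8, Rab8 over Rab39 and Rab39 over RabX1. The place of Rab35 depended on how its nested exons were summarised. With the longest exon standing for each set of overlapping exons it was the third of the family, at a control mean of 13.0 signal. With every listed exon counted it was the first, at 20.7, and with the shortest exon of each set, an alternative added after seeing the data, it was again the first, at 19.8.

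Shared exons bore on the weakest members. RabX6 had 78.0% of its exonic length in an exon that overlaps the SNARE gene Vti1, RabX4 had 40.6% in an exon that overlaps CG31357, and Rab19 had 35.1% in an exon that overlaps CG7197, now Arl5. Reads there count for both genes. Without shared exons RabX6 had a mean of 0.318 signal in knockdown libraries and 0.713 in controls, and RabX4 0.189 and 0.466, so neither counted as on and 17 genes of the family did. Rab4 and Rab14 had smaller shared parts, 19.2% with CG42239 and 17.7% with CR44851, and stayed on without them, at control means of 8.47 and 8.83.

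The next comparison asked whether Rab transcripts differ between dTet knockdown and control libraries. Of the 27 genes 17 had a mean signal of 1 or more over the 4 libraries and could be tested. None of the 17 passed the threshold of an adjusted p under 0.05 (limma, 0 of 6050 genes tested passed, 0.0%). At an unadjusted p under 0.05 there was 1 Rab gene, Rab4, beside 4.05% of all genes tested. The Rab genes had a median log2 difference of -0.08, against -0.03 over all genes tested, with 13 lower and 4 higher in knockdown libraries. That is 76.5% lower, beside 54.7% of all genes. After rescaling to equal median signal 10 were lower and 7 higher with a median of -0.04, where all genes had 0.01, and after quantile normalization 11 and 6 with a median of -0.03, where all genes had 0.01. The tilt also leaned on control 1. Without it 9 were lower and 8 higher with a median of -0.0027, beside 52.0% of all genes lower, and without control 2 it was 16 and 1 with a median of -0.17, beside 56.2%. Control 1 also had the least even signal along genes. The median absolute log2 ratio between the first and last exon of the 13 Rab genes that allowed it was 1.11 and 1.19 in the knockdown libraries, against 1.75 and 1.13 in the controls, and the part of this in the tilt was not tested.

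Among the 17 genes, 7 had both knockdown libraries below both controls (41.2%, beside 17.4% of all genes tested), and 1, Rab18, had both above (5.88%, beside 13.2%). The 7 were Rab1, Rab2, Rab4, Rab6, Rab8, Rab35 and Rab39. This count rested on the scaling of the libraries and on the exon rule. After the libraries were rescaled to equal median signal, 3 of the 17 lay below, which is 17.6% beside 14.6% of all genes, and they were Rab4, Rab6 and Rab8. Rab10 and Rab18 then lay above, which is 11.8% beside 16.0%. With the shortest exon of each set it was again 3, Rab1, Rab4 and Rab6 (17.6%, beside 17.0% of all genes). With every listed exon counted it was 6 (35.3%, beside 17.4%), and without shared exons 8 of 16, where 15.9% of all genes were. These alternatives were added after seeing the data. Rab4 and Rab6 were below the controls under each of them.

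**Figure D2:**
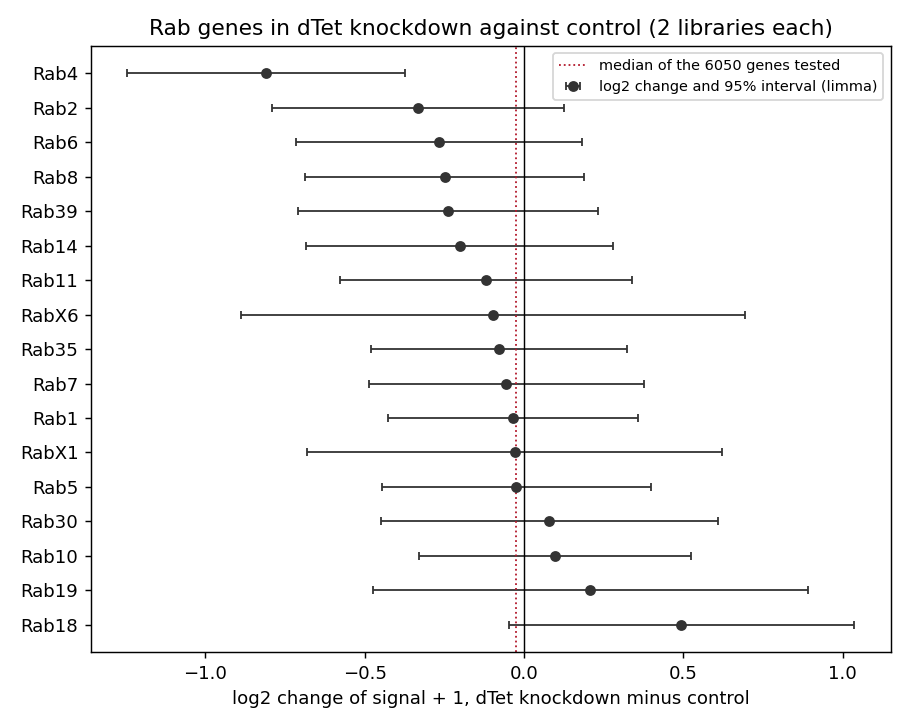
Log2 difference of signal + 1, dTet knockdown minus control, for the 17 Rab genes tested, with 95% intervals from limma (2 libraries per group) and a dotted line at the median of all 6050 genes tested. Rab4 at -0.81 is the gene whose interval does not reach 0, before adjustment, and the other intervals include it.

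Rab4 (2R, 13460966 to 13462483, dm3) averaged 3.99 ± 0.08 signal in knockdown libraries and 7.76 ± 0.61 in controls (SD, n = 2 each), so the control mean was 1.94 times that of the knockdown. The log2 difference was -0.81 with a standard error of 0.19 and an unadjusted interval from -1.24 to -0.37. It ranked 16 of 6050 by p and did not pass (limma, unadjusted p = 0.00250, adjusted p = 0.903). With any single library left out it lay between -0.88 and -0.74, and over all alternatives its adjusted p ran from 0.704 to 0.999. The higher of both control values was that of control 1, the library with the least even signal, and without it the difference was -0.74.

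The others in order of p were further from the threshold, each with an adjusted p of 0.9995 (limma). Rab18 averaged 3.45 ± 0.88 signal in knockdown libraries and 2.14 ± 0.46 in controls (SD, n = 2 each), a log2 difference of 0.49 with a standard error of 0.24 (unadjusted p = 0.0692). Rab2 averaged 8.44 ± 1.06 and 10.9 ± 1.77, a difference of -0.33 with a standard error of 0.20 (unadjusted p = 0.133). With single libraries left out Rab18 ran from 0.29 to 0.70, Rab2 from -0.49 to -0.18, Rab6 from -0.42 to -0.11 and Rab39 from -0.37 to -0.11. Rab6 stood at -0.27 with a standard error of 0.20 (limma, unadjusted p = 0.210). Rab8 and Rab39 stood at -0.25 and -0.24 with standard errors of 0.19 and 0.21 (limma, unadjusted p = 0.227 and 0.277). Rab35 had -0.08 with a standard error of 0.18 and an interval from -0.48 to 0.32 (unadjusted p = 0.662). The intervals of Rab1 (-0.43 to 0.36) and Rab5 (-0.45 to 0.40) were similarly wide around 0. Differences inside those bounds thus remained possible with 2 libraries per group. Differences beyond them need not pass after adjustment, as Rab4 at -0.81 did not.

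Single exons were compared in the same way to see whether a difference lay in part of a gene. The 27 Rab genes had 114 sets of overlapping exons, of which 67 could be tested, and 0 passed (limma, 0 of 23023 exons passed, 0.0%). At an unadjusted p under 0.05 there were 4, or 5.97%, beside 3.96% of all exons tested, each with an adjusted p of 0.999. These 4 did not point one way. Exon 4 of Rab5 in genome order (2L, 2360971 to 2361091) had 2.73 and 4.29 signal in knockdown libraries, against 8.27 and 8.46 in controls (-1.08, limma, unadjusted p = 0.0118). Exon 4 of Rab4 (2R, 13461835 to 13462483) had 4.51 and 5.83 against 11.9 and 9.83 (-0.95, limma, unadjusted p = 0.0152). Exon 1 of Rab10 had 9.14 and 7.02 against 2.41 and 4.79 (1.02, limma, unadjusted p = 0.0231), and exon 4 of Rab19 had 3.46 and 1.91 against 1.02 and 0.223 (1.20, limma, unadjusted p = 0.0365). Over the 67 Rab exons tested 14 had both knockdown libraries below both controls (20.9%, beside 15.2% of all exons tested) and 10 had both above (14.9%, beside 16.6%). In Rab10 the groups overlapped in each of the other 3 exons, and in Rab5 the nearby exon 2 had the opposite order, with 11.3 and 12.2 signal in knockdown libraries, against 7.70 and 8.59 in controls.

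**Figure D3:**
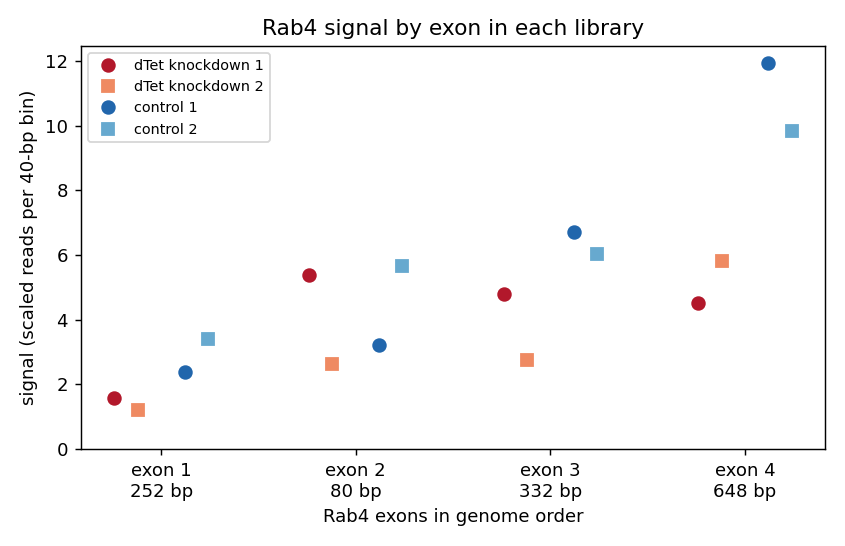
Signal of the 4 exons of Rab4 in genome order in dTet knockdown 1 and 2 (red, orange) and control 1 and 2 (dark and light blue), with exon lengths under the axis. Both knockdown libraries lie below both controls in exons 1, 3 and 4, and the groups overlap in exon 2, the shortest at 80 bp.

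In Rab4 the lower signal was seen in 3 of the 4 exons. Exon 3 had 4.80 and 2.75 signal in knockdown libraries, against 6.72 and 6.03 in controls, and exon 1, which overlaps CG42239, had 1.60 and 1.23 against 2.38 and 3.40. The groups overlapped in exon 2 alone, at 5.40 and 2.62 against 3.23 and 5.66. Signal along the exons was uneven in Rab4, with 2.38 in exon 1 and 11.9 in exon 4 of control 1. Rab5 was uneven as well, in every library. Its exons 1 to 5 held between 2.73 and 25.4 signal, and each of exons 6 to 11 stayed under 2, so its gene mean of 11.5 in controls averaged a strongly and a weakly covered part.

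The hMeRIP peak lists were then compared with the Rab exons. In the dTet CRISPR list 1 of the 27 genes, Rab35, had an exonic peak, and the same held in the yellow CRISPR list. That is 5.26% of the 19 Rab genes on, beside 7.74% of all genes on in the dTet list and 5.59% in the yellow list, and 4.65% for peaks in both. The share of the family with a peak was thus near that of all genes on, and it rested on 1 gene. Among genes with a control signal of 5 or more, 15.5% had a dTet peak and 10.9% a yellow peak. This class held 11 Rab genes, of which 1, Rab35, had peaks. With 1 sample per line and no score in the lists, neither genotype nor peak strength could be tested.

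Rab35 (X, 20049798 to 20053904, dm3) had 2 exonic peaks in each list. Of the 6086 genes on, 283 had an exonic peak of both lists, and 22 (0.361% of the genes on) had 2 or more in each. The dTet list placed them at X:20051263-20052064 (802 bp) and X:20052918-20053692 (775 bp). The yellow list placed them at X:20051274-20051763 (490 bp) and X:20052929-20053395 (467 bp). Both yellow peaks lay wholly inside a dTet peak and wholly inside an exon, in exons 1 and 4. Of the wider dTet peaks, 61.1% and 60.3% of the width was shared with the yellow list. The first dTet peak had 606 bp in exon 1 and ran across the intron to 62 bp of exon 2, so 83.3% of it was exonic, and the second had 764 bp in exon 4. The exon tables do not mark coding sequence or untranslated regions, so the peaks were placed by exon only.

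**Figure D4:**
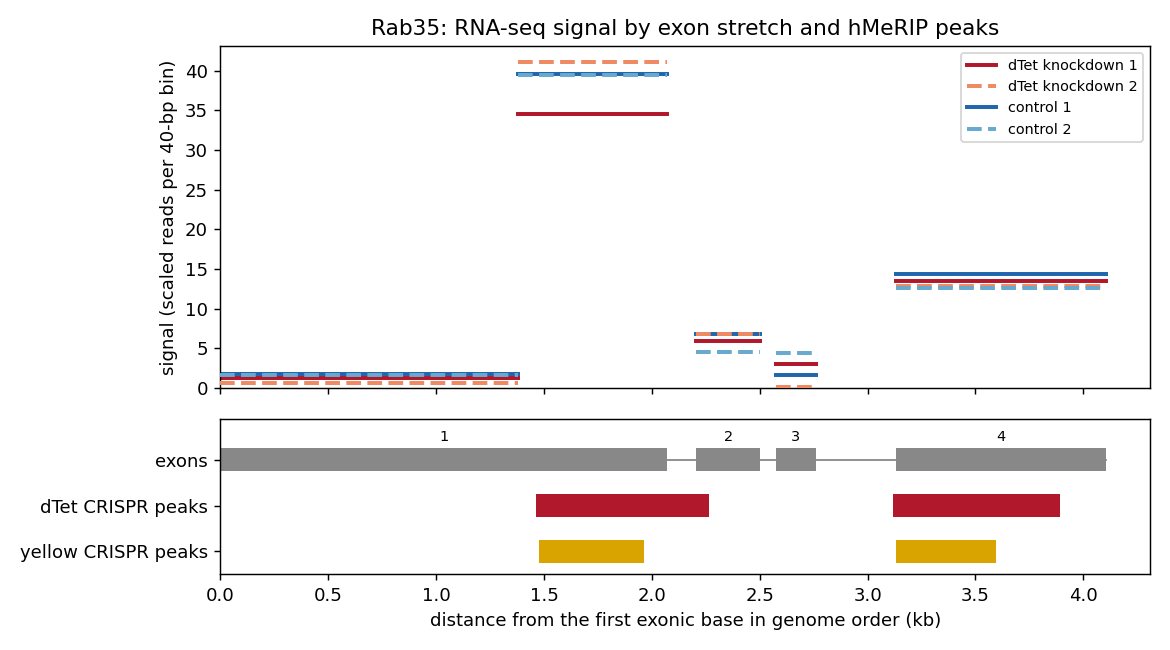
Rab35 in genome order from its first exonic base (kb). Upper panel: RNA-seq signal of each exon stretch in dTet knockdown 1 and 2 and control 1 and 2, with exon 1 split where its nested forms begin. Lower panel: exons 1 to 4 and the peaks of the dTet CRISPR and yellow CRISPR lists. The yellow peaks, and most of the width of the dTet peaks, lie on the inner part of exon 1 and on exon 4, the stretches with the highest signal. The first dTet peak runs on across the intron into exon 2.

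The yellow peaks, and most of the width of the dTet peaks, lay on the stretches of Rab35 with the most signal. Exon 1 is listed in 4 nested forms, and its inner 691 bp (20051177 to 20051868) held 34.5 and 41.1 signal in knockdown libraries, against 39.5 and 39.5 in controls. The outer 1379 bp, taken by difference, held 1.24 and 0.603 against 1.77 and 1.69. The peaks of both lists on exon 1 began inside the inner stretch. Exon 4 had 13.5 and 12.9 signal against 14.3 and 12.6, whereas exon 2 had 6.001 and 6.85 against 6.88 and 4.59, and exon 3, without a peak, had 3.05 and 0.191 against 1.63 and 4.45. The groups overlapped in the inner stretch and in exons 2, 3 and 4. In the weakly covered outer stretch both knockdown libraries lay below both controls. The same held for exon 1 as a whole, beside 15.2% of all exons tested.

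**Figure D5:**
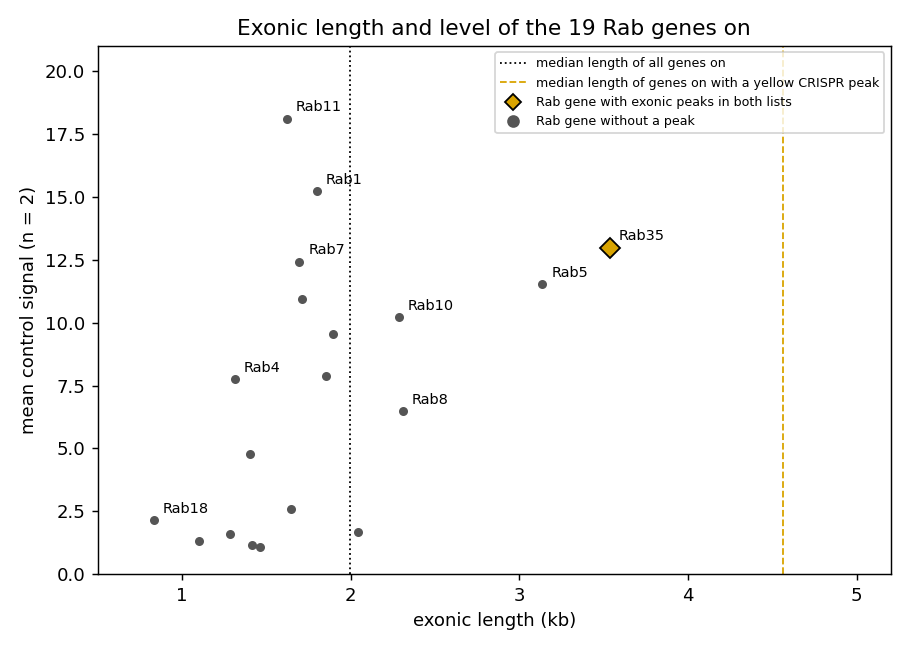
Exonic length (kb) against mean control signal (n = 2) of the 19 Rab genes on, with lines at the median length of all genes on (2.00 kb) and of genes on with a yellow peak (4.56 kb). Rab35, the gene with peaks (yellow diamond), is the longest by listed exons at 3.53 kb, followed by Rab5 at 3.14 kb. Both lengths include weakly covered stretches. Rab11 and Rab1 have higher signal and less length.

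The median exonic length was 1.69 kb over the 19 on, beside 2.00 kb over all genes on and 4.56 kb over genes on with a yellow peak. By listed exons Rab35 was the longest of the 19 at 3.53 kb, of which the weakly covered outer stretch of exon 1 made up 1379 bp. Rab5 followed with 3.14 kb, also weakly covered in part, and a control mean of 11.5 signal. Length without the weakly covered stretches was not compared. Rab11 and Rab1, the highest by the longest-exon rule, were 1.62 and 1.80 kb long. Whether length or level bears on the peaks was not tested. The other 26 Rab genes had no peak of either list anywhere in their span, introns included. The closest peak to any of them was a dTet peak 0.655 kb from Rab9, which was not on. The next were 4.77 kb from Rab27, 4.96 kb from RabX6 and 5.77 kb from RabX4, also of the dTet list.

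The genes that load, switch and read Rab proteins were set beside the family. Of the 4 genes for prenylation and membrane recycling, all were on, and Gdi, whose product extracts GDP-bound Rab proteins from membranes, matched the strongest Rab genes at 16.5 and 14.9 signal in knockdown libraries, against 16.3 and 16.4 in controls. The escort gene Rep had 2.34 and 2.29 against 1.67 and 1.86, and the geranylgeranyl transferase subunit genes RabGGTa and RabGGTb averaged 2.86 and 3.26 in knockdown libraries and 3.14 and 2.37 in controls. Over all 27 Rab genes the median control signal was 2.14, beside 1.42 for 11 exchange factors, 1.66 for 12 GTPase-activating proteins and 1.53 for 29 effectors and tethers. Over the genes on alone it was 7.76 for 19 Rab genes, beside 1.55 for 10 exchange factors, 1.72 for 11 GTPase-activating proteins and 1.93 for 22 effectors and tethers.

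None of these genes passed between knockdown and control (limma, smallest adjusted p 0.9995 in each list), nor did any have an unadjusted p under 0.05. Members entered the test by their mean over all 4 libraries. They were higher and lower in 2 and 2 for prenylation and recycling (median log2 difference 0.10), 4 and 5 for exchange factors (-0.05), 6 and 5 for GTPase-activating proteins (0.05) and 16 and 8 for effectors and tethers (0.10). Of the 6050 genes tested 2738 were higher and 3312 lower, with a median of -0.03. Whether the counts of these lists hold under other scaling or without single libraries was not tested. Among exchange factors the smallest p belonged to Mon1, which activates Rab7, at 0.41, Sbf at 0.33, strat at -0.31 and Crag at -0.20. Among GTPase-activating proteins it belonged to TBC1D5 at -0.43, RN-tre at 0.26, GAPcenA at 0.18 and wkd at -0.15. Among effectors and tethers it belonged to the golgin gene Golgin84 at -0.46, the Rab5 effector gene Rbsn-5 at -0.51, the exocyst gene Sec5 at 0.31 and Pi3K59F, the phosphatidylinositol 3-kinase of endosomes, at 0.31.

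A list of other small GTPases gave a comparison of like genes. The median control signal was 5.10 over all 24 and 5.67 over the 22 on, and 22 were tested, 11 higher and 11 lower (median log2 difference -0.01). Among those with the smallest p, Arl2 stood at -0.84, Arl4 at 0.46 and Rac2 at 0.36, and none passed (limma, adjusted p = 0.9995). Of the 22 on, Rac2 had an exonic peak in both lists, Rap1 in the dTet list alone and Rho1 in the yellow list alone. Among the regulators sky (1 of 11 GTPase-activating genes on) and the Rab11 effector gene Rip11 (1 of 22 effectors and tethers on) had one in both lists. Crag (1 of 10 exchange factors on) had one in the dTet list alone. Over all genes on, 7.74% had a dTet peak, 5.59% a yellow peak and 4.65% both. These counts were not tested.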

How the data were processed

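The study's polyA RNA-seq (2 dTet knockdown and 2 control libraries) and hMeRIP-seq (1 dTet CRISPR and 1 yellow CRISPR sample) were used. Reads were aligned with BWA to dm3 and peaks called with MACS 1.4, per the submitters' processing notes. The annotation, read counter and peak threshold are not given in the sources used here. The deposited RNA-seq tables give a signal, or coverage value, for each of 78680 exons. All values checked came out as whole reads per 40-bp bin times 1 library factor (tolerance 0.05 read), which makes them coverage and not counts. The deposited peak lists give positions alone, so no stricter threshold could be set.

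Overlapping exons of a gene were grouped, the longest stood for its group, and the gene signal was their mean weighted by bins. Exon positions are as listed, and peak starts count from 1. Peaks were intersected with bedtools 2.31.1, with 1 shared bp as overlap. The knockdown was tested against the control on log2(signal + 1), two-sided, by lmFit and eBayes with a trend (limma 3.58.1, R 4.3.3). The 6050 genes whose mean signal reached 1 entered, and p-values were adjusted over all of them by Benjamini-Hochberg. Log2 differences understate the change of weakly expressed genes. The number of libraries, 2 per group, limits the precision. The script was tested on simulated data.

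Every Rab gene is named. Full statistics are given for the 6 Rab genes with the smallest p and for the gene with a peak, and 4 members with the smallest p are named from each other list, apart from an item not reported here. Members, lists and role groups were chosen with earlier results of these data known. Alternatives covered the pseudocount, the filter, the library scaling, the trend, the exon summary, shared exons, a replicate block, peak overlap and leaving out each library. Same-numbered knockdown and control libraries did not deviate together (r = 0.01 over 6050 genes), so the numbers were not taken to pair them.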

Additional observations from a re-analysis of the deposited data

How the results depend on the processing

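All counts of genes and exons past the threshold stayed at 0 under every alternative run, and the peak counts stayed at 1. With a replicate block, 0 genes passed and 245 had an unadjusted p under 0.05, as without it, and the block changed no other call. The number of Rab genes on ran from 14 at a threshold of 2 to 22 at 0.5, and from 16 to 20 with a control library left out. The number whose knockdown libraries lay below both controls was 7 as deposited, 3 after rescaling to equal medians and 3 with the shortest exon of each set. Both alternatives were chosen after seeing the data, and the cause was not tested. Small differences changed sign. After rescaling, Rab1 had 0.0092, Rab5 0.018 and RabX1 0.0065, and after quantile normalization Rab1 had 0.014 and RabX1 0.014. With a library left out, Rab5 ran from -0.12 to 0.075, RabX1 from -0.43 to 0.37, Rab7 from -0.20 to 0.092, Rab30 from -0.025 to 0.18, RabX6 from -0.55 to 0.36, Rab11 from -0.31 to 0.070, Rab10 from -0.021 to 0.22 and Rab19 from -0.17 to 0.59. No other Rab gene changed sign. No counting interval was computed for genes of low signal. In reads summed over bins, Rab19 had 136 and 97 in the knockdown libraries, against 171 and 57 in the controls. RabX4 had 42 and 26 against 149 and 91, and Rab27 had 120 and 26 against 130 and 90. The read counter is not given, so these need not be separate reads.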
